A study of Mus musculus with 89 samples.

Results

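Solute carriers are the largest group of membrane transport proteins, and their genes carry symbols of the form Slc, a family number, a letter and a member number. The genes described here are all those whose mouse symbol begins with Slc and a digit, except Slc1a2, Slc1a3 and Slc4a4. They were looked up in 2 exon skipping tables made from nucleus accumbens of mice, a reward region of the forebrain. Of 9783 genes over both tables, 190 were solute carriers. The HSV table listed 181 of them with 446 exons, the dCas9-SET2 table listed 62 with 93 exons, and 53 genes stood in both. The symbol rule also takes in a few genes that carry the name of a transporter they bind or overlap. Among them are the scaffold genes Slc9a3r1 and Slc9a3r2, and Slc4a1ap and Slc7a6os. Such genes are counted in the family of their symbol, also where a family is called carriers below.

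Solute carriers move small molecules across membranes by exchange, cotransport or facilitated diffusion, mostly driven by the sodium, proton or potassium gradients that ATP-driven pumps maintain. In the brain, members in the plasma membrane take transmitters back up after release, others fill synaptic vesicles, and others supply neurons and glia with glucose, lactate and amino acids. The Slc25 family sits mainly in the inner mitochondrial membrane, and the Slc35 family carries nucleotide sugars into the endoplasmic reticulum and Golgi.

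The series studied the histone mark H3K36me3 and alternative splicing, and its labels hold 89 samples. Its other 48 samples were not used. Per the labels, 9 RNA samples came from nucleus accumbens of wild-type C57BL/6 mice aged 8 weeks after herpes simplex virus (HSV) delivery of HSV-GFP, HSV-Set2 (a histone methyltransferase) or HSV-R195G, with 3 samples each. Another 32 RNA runs followed dCas9-SET2, an inactive Cas9 joined to SET2, with a guide named SRSF11 or NT, 16 runs per guide under 4 sample names. Neither table names its columns, so no virus or guide was assigned. The HSV table compares a set of 3 libraries (the 3-library set) with a set of 2 libraries (the 2-library set), and the dCas9-SET2 table compares 16 runs (the second set) with 16 others (the first set). The labels do not say if each library is a different animal. The p-values therefore measure the spread between these libraries alone, which may be technical. That spread was unequal. The mean chi-square of gene reads between 2 libraries, larger where they differ more, was 13.3 within the 2-library set. Within the 3-library set it was 2.98 to 4.55. The fits used 1 spread per gene for both sets.

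In the HSV table, the reads over all listed exons numbered 7428974 to 8341849 in the 3-library set, against 8366275 and 8638249 in the 2-library set. The dCas9-SET2 table is far thinner, with 56946 to 84870 reads per run in the second set and 79799 to 106251 in the first set. The runs at positions 4 and 8 held the same reads in all 5608 exons of both sets and were counted as 1 run, which left 15 distinct runs per set. Within the HSV table, 7 of 8 tested medium spiny neuron markers were lower in the 3-library set. Their summed coverage was 2866 to 2983 CPM (reads scaled to a fixed library total) in the 3-library set and 6839 to 8601 CPM in the 2-library set. All 8 tested interferon response genes were higher, at 2875 to 3252 CPM in the 3-library set and 77.8 to 175 CPM in the 2-library set. Oligodendrocyte markers (6 of 7 higher) summed to 8289 to 10834 CPM in the 3-library set and 6271 to 7674 CPM in the 2-library set. Microglia markers (4 of 7 higher) summed to 1609 to 1737 CPM in the 3-library set, against 687 and 1503 CPM in the 2-library set. Of 6 astrocyte markers 2 were higher, with summed coverage between 3843 and 3886 CPM in the 3-library set, against 3622 and 3788 CPM in the 2-library set. Of 5 general neuron markers 2 were higher and 3 lower. Replicate 2 of the 2-library set stood apart in choroid plexus markers, whose sum was 195.2 to 236 CPM in the 3-library set, 574 CPM in replicate 1 and 10944 CPM in replicate 2 of the 2-library set. No tested gene stood in the cortical, vascular, leptomeningeal and thalamic lists. The part of these differences in the results on solute carriers was not tested.

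The promoters of 3 genes are shown. Slc6a11 had the smallest adjusted p among the transmitter carriers. Slc1a4, a neutral amino acid carrier, was chosen as the 1 gene that rose with an amino acid response pattern. Slc25a25 had the only solute carrier exon called at a higher read minimum, while its coverage was not called. Each spans 250 bases before to 50 bases after a start site in RefSeq (GRCm38.p6), at chr6:114130991-114131290 on the plus strand, chr11:20332664-20332963 on the minus strand and chr2:32424017-32424316 on the minus strand. Slc25a25 has 3 listed start sites, of which the one with a motif is printed. Capitals mark a match to a motif named after the sequences, and Slc6a11 has none.
Slc6a11: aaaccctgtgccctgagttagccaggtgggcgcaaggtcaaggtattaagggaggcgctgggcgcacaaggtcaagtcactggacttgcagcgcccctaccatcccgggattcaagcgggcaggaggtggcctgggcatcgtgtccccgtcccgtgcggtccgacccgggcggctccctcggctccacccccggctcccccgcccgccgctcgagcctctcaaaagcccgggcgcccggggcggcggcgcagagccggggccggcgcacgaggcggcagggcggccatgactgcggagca
Slc1a4: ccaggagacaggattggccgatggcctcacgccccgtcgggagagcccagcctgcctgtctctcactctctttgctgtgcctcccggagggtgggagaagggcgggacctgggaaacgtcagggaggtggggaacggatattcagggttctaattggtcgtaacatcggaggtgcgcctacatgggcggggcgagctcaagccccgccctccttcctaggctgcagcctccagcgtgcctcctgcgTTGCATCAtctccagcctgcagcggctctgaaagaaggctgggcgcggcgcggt
Slc25a25: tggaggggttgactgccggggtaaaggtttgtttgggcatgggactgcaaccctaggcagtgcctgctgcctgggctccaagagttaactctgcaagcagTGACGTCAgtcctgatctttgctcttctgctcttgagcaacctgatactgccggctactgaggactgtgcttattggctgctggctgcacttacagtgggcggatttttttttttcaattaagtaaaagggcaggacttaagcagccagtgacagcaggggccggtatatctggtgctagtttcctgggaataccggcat

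After the coverage results were known, 6 motifs were searched on both strands in the promoters of 118 of the 151 tested solute carriers, the number matched by symbol. The interferon-stimulated response element was in 3.99% of all genes with a promoter and in 1.69% of the solute carriers, 0 of them among the 32 matched genes that rose. The amino acid response pattern TGATGNAA was in 4.51% of all genes and 2.54% of the solute carriers, with 1 gene that rose, Slc1a4. Its form TGATGCAA, contained in that pattern, was in 1.03% of all genes and 2.54% of the solute carriers. The cyclic AMP response element TGACGTCA was in 2.03% of all genes and 0.847% of the solute carriers, the 1 gene being Slc25a25. The CCAAT pattern CCAATGG was in 5.56% of all genes and 9.32% of the solute carriers, and the E-box CACGTG was in 8.09% and 14.4%. Among the 32 matched genes that rose, 3 held CCAATGG and 4 held CACGTG. A match is only a run of letters, and nothing is drawn from it.

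Coverage served as a stand-in for the RNA level of a gene: the inclusion and skipping reads of its deepest listed exon, in CPM. In 8201 genes with a mean of at least 20 reads per library, limma called 22.7% different at an adjusted p below 0.05, 13.2% higher and 9.47% lower in the 3-library set. Of the 181 solute carriers, 151 passed that read minimum. Of these 37 (24.5%) rose and 5 (3.31%) fell, and 109 did not pass the test. The median log2 difference was 0.295 in the solute carriers, with 106 positive and 45 negative, and 0.000535 in all genes tested. Without overlap between the sets, 70 solute carriers were higher and 15 lower in the 3-library set, where 49.8% of all genes did not overlap (26.0% higher and 23.8% lower). Over all settings, among them fits without each library in turn, the median of the solute carriers ran from 0.279 to 0.357. In tissue RNA, a change in the number of cells of a type and a change of RNA per cell cannot be told apart. CPM values depend on exon length and are compared here between libraries of 1 gene, not between genes.

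**Figure D1:**
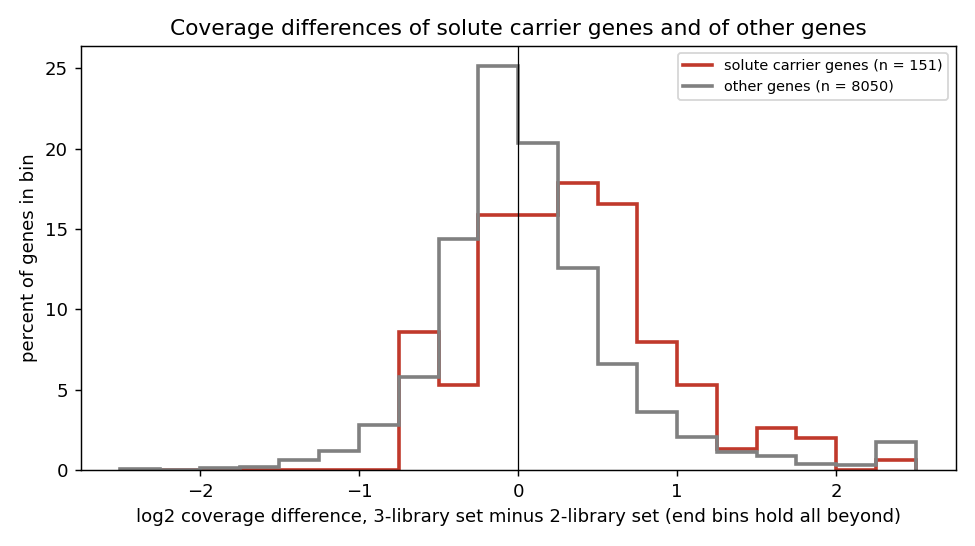
Share of genes (percent, vertical axis) in bins of the log2 coverage difference, 3-library set minus 2-library set (horizontal axis), for 151 solute carriers (red) and 8050 other genes (grey). The red outline lies to the right of the grey one, with medians of 0.295 and -0.00435.

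Of 5 tested plasma membrane transmitter carriers 4 rose and none fell, against 13.2% and 9.47% of all genes. Without replicate 2 of the 2-library set 3 rose. Slc6a11 encodes a GABA transporter found mainly on astrocytes. It had 228, 214 and 224 CPM in the 3-library set, against 57.9 and 57.9 CPM in the 2-library set, which is 3.83-fold (log2 1.94 ± 0.11 SE, limma adjusted p = 9.11e-08). All 3 libraries of the 3-library set lay above both libraries of the 2-library set.

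Slc6a9, the glycine transporter of glia, had 74.0, 69.7 and 83.9 CPM in the 3-library set, against 30.8 and 34.98 CPM in the 2-library set (log2 1.20 ± 0.16 SE, limma adjusted p = 0.000115). Slc5a7, the choline transporter that marks cholinergic neurons, had 32.1, 29.1 and 31.2 CPM in the 3-library set, against 18.96 and 12.1 CPM in the 2-library set (log2 1.02 ± 0.25 SE, limma adjusted p = 0.00915). Its call was lost without replicate 2 of the 2-library set (log2 0.70, limma adjusted p = 0.0604). Slc1a1, a neuronal glutamate transporter, had 85.2, 89.4 and 83.0 CPM in the 3-library set, against 79.3 and 65.8 CPM in the 2-library set, and did not pass the test (limma adjusted p = 0.214). Its sets did not overlap, but lay close. Slc6a3, the dopamine transporter, had 1 to 5 reads in the 3-library set, against 2 and 14 reads in the 2-library set and was not tested. On the list of synaptic vesicle carriers of transmitters, which does not hold Slc6a17, 1 gene was tested: Slc18b1, a polyamine carrier, with 18.5, 20.5 and 16.2 CPM in the 3-library set, against 14.5 and 15.3 CPM in the 2-library set (limma adjusted p = 0.460). Slc17a9, an ATP carrier, was listed with at most 5 reads in a library. The others on that list had no exon listed in the HSV table.

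**Figure D2:**
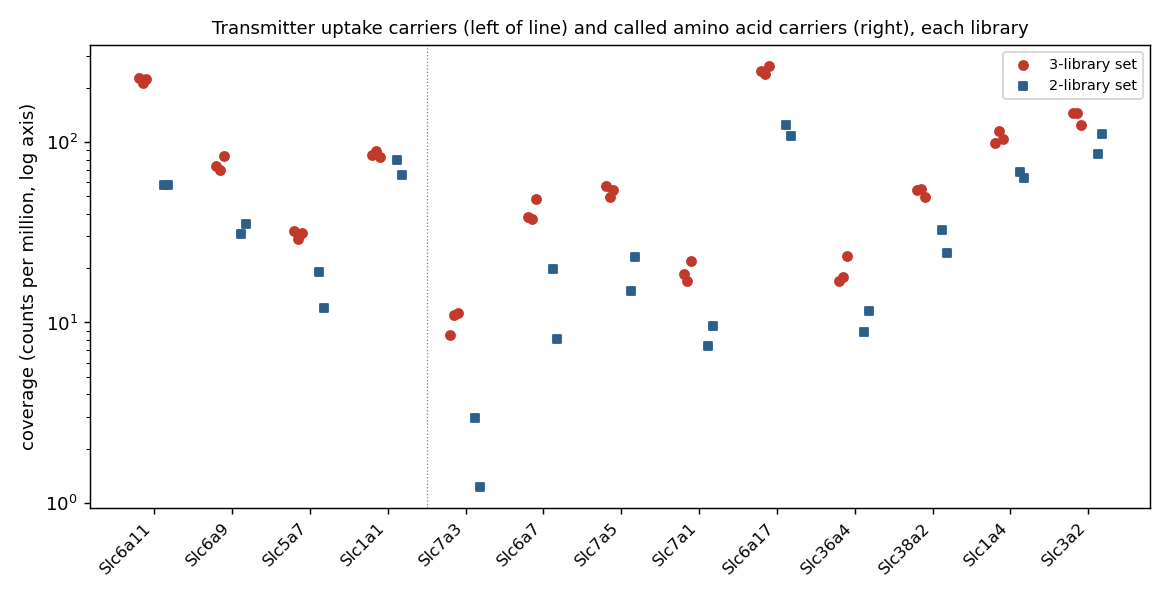
Coverage (CPM, log axis) of 4 transmitter uptake carriers and 9 called amino acid carriers in each of the 3 libraries of the 3-library set (circles) and the 2 of the 2-library set (squares). Only Slc1a1 among them was not called; Slc6a11 lies at 214 to 228 CPM in the 3-library set and 57.9 CPM in both libraries of the 2-library set.

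Of 21 tested amino acid carriers 9 (42.9%) rose and none fell, against 13.2% and 9.47% of all genes. The family median log2 was 0.56. Without replicate 1 of the 2-library set 6 rose and 1 fell, without its replicate 2 9 rose and 1 fell, and with the reads of all exons of a gene summed 11 rose and 1 fell. Slc7a3, a cationic amino acid carrier, had 8.52, 11.04 and 11.2 CPM in the 3-library set, against 2.95 and 1.23 CPM in the 2-library set (log2 2.34 ± 0.50 SE, limma adjusted p = 0.00445), the largest rise of any tested solute carrier. Both libraries of the 2-library set held fewer than 20 reads of Slc7a3, so it met the read minimum through the 3-library set. Slc7a5, the large neutral amino acid exchanger, had 56.96, 49.5 and 54.5 CPM in the 3-library set, against 15.02 and 23.2 CPM in the 2-library set (log2 1.52 ± 0.21 SE, limma adjusted p = 0.000201). Its partner Slc3a2, the heavy chain that carries it to the membrane, had 145, 146 and 125 CPM in the 3-library set, against 85.7 and 111 CPM in the 2-library set (log2 0.50 ± 0.13 SE, limma adjusted p = 0.0165). Both chains of that exchanger were thus higher in every library of the 3-library set. Slc6a7, the proline transporter, had 38.2, 37.7 and 48.5 CPM in the 3-library set, against 19.7 and 8.13 CPM in the 2-library set (log2 1.69 ± 0.32 SE, limma adjusted p = 0.00181). Slc6a17, a vesicular neutral amino acid carrier of neurons, had 249, 238 and 265 CPM in the 3-library set, against 124 and 108 CPM in the 2-library set (log2 1.11 ± 0.11 SE, limma adjusted p = 8.66e-06). No library of the 2-library set reached the lowest of the 3-library set in either gene. Slc7a1, another cationic carrier (log2 1.16), Slc36a4 (0.91), the glutamine carrier Slc38a2 (0.91) and Slc1a4 (0.69) also rose. The call of Slc7a1 was lost without replicate 1 of the 2-library set (limma adjusted p = 0.0525) and without replicate 3 of the 3-library set (0.0679). Slc3a2 lost its call without replicate 1 of the 2-library set (limma adjusted p = 0.120) and without replicate 1 or 2 of the 3-library set (0.0781 and 0.0672). Slc36a4 lost it without replicate 1 of the 2-library set (limma adjusted p = 0.167) and without replicate 1, 2 or 3 of the 3-library set (0.0729, 0.0725 and 0.157).

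Of 13 tested glucose, monocarboxylate and related Slc5 carriers 5 (38.5%) rose and none fell, against 13.2% and 9.47% of all genes. Their median log2 was 0.57. Slc2a1, the glucose transporter of brain vessels and glia, had 63.8, 93.7 and 58.6 CPM in the 3-library set, against 34.5 and 34.98 CPM in the 2-library set (log2 1.02 ± 0.20 SE, limma adjusted p = 0.00218). Slc2a3, the neuronal glucose transporter, had 146, 120 and 151 CPM in the 3-library set, against 130 and 113 CPM in the 2-library set, and the sets overlapped (limma adjusted p = 0.329). With the reads of all its exons summed, Slc2a3 was called (log2 0.34, limma adjusted p = 0.0384). Slc5a5, the sodium iodide cotransporter, had 32.9, 33.7 and 34.5 CPM in the 3-library set, against 14.5 and 11.6 CPM in the 2-library set (log2 1.37 ± 0.22 SE, limma adjusted p = 0.000662). The monocarboxylate carrier family member Slc16a11 (log2 0.98), Slc45a1 (0.85) and the vitamin carrier Slc5a6 (0.75) made up the rest. Slc45a1 was no longer called without replicate 1 of the 2-library set (limma adjusted p = 0.0615).

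Of 30 tested members of the mitochondrial Slc25 family 1 rose (3.33%) and 3 fell (10%), against 13.2% and 9.47% of all genes, and 26 were not called; the median log2 was -0.03. Slc25a18, a mitochondrial glutamate carrier expressed in astrocytes, had 143, 135 and 149 CPM in the 3-library set, against 27.8 and 55.4 CPM in the 2-library set (log2 1.85 ± 0.22 SE, limma adjusted p = 5.61e-05). Slc25a23, a calcium-dependent ATP-Mg/phosphate carrier, had 319, 319 and 371 CPM in the 3-library set, against 569 and 503 CPM in the 2-library set (log2 -0.67 ± 0.10 SE, limma adjusted p = 0.000278). Slc25a18 thus went opposite to the family's 3 lower members. Slc25a5, an ADP/ATP carrier with processed gene copies elsewhere in the genome that could share its reads, had 814, 776 and 795 CPM in the 3-library set, against 1037 and 993 CPM in the 2-library set (log2 -0.35 ± 0.07 SE, limma adjusted p = 0.00393). Slc25a16 had 29.9, 31.5 and 31.5 CPM in the 3-library set, against 53.4 and 49.5 CPM in the 2-library set (log2 -0.73 ± 0.17 SE, limma adjusted p = 0.00781). The other 26 had log2 differences on both sides of 0. Without replicate 1 of the 2-library set 2 members rose and 3 fell, and without its replicate 2, 2 rose and 4 fell.

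**Figure D3:**
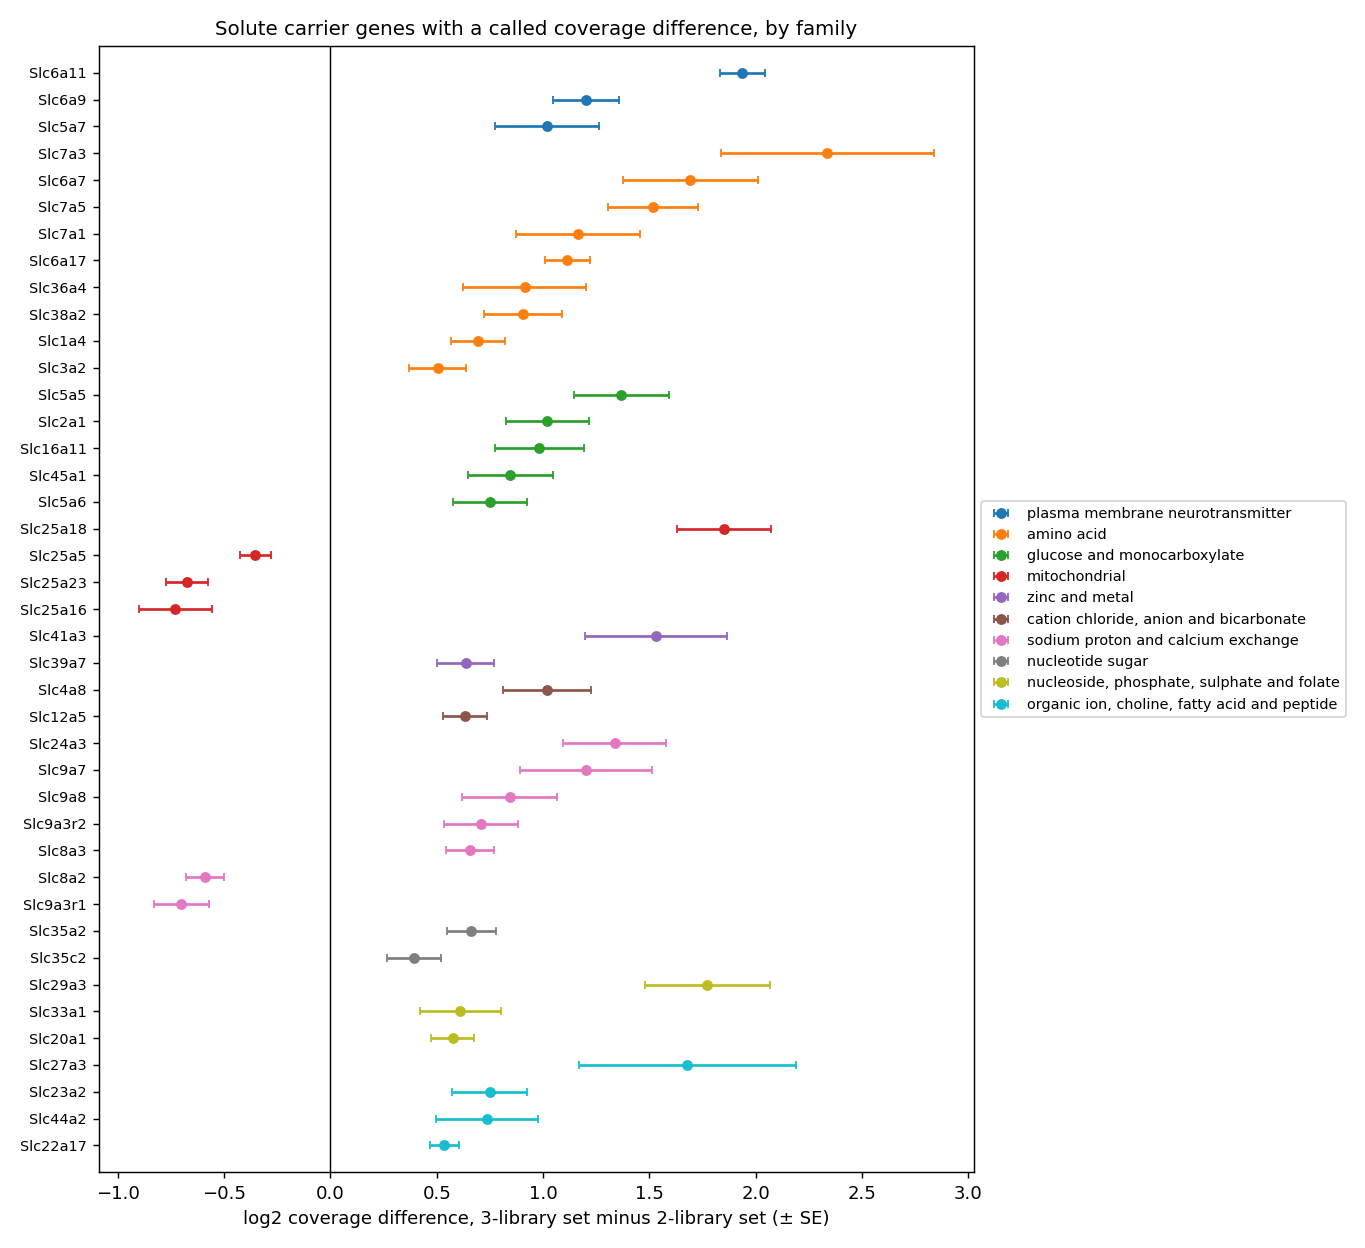
log2 coverage difference (3-library set minus 2-library set, horizontal axis) with standard errors for the called solute carriers named in the text, coloured and ordered by family. The 5 to the left of 0 are 3 mitochondrial carriers and Slc8a2 and Slc9a3r1 of the sodium proton and calcium exchange group.

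Of 12 tested sodium, proton and calcium exchange genes 5 (41.7%) rose and 2 (16.7%) fell, against 13.2% and 9.47% of all genes. The group's median log2 was 0.53. Without replicate 1 of the 2-library set, and likewise without replicate 1 of the 3-library set, 3 rose and 2 fell. Slc8a2, the sodium calcium exchanger NCX of neurons with most reads in the group, had 297, 264 and 281 CPM in the 3-library set, against 428 and 414 CPM in the 2-library set (log2 -0.59 ± 0.09 SE, limma adjusted p = 0.000385). Its relative Slc8a3 went the other way, with 133, 135 and 150 CPM in the 3-library set, against 91.3 and 85.7 CPM in the 2-library set (log2 0.66 ± 0.11 SE, limma adjusted p = 0.00111). Slc8a1, another exchanger of this family, had a log2 difference of 0.88 and did not pass the test (limma adjusted p = 0.116). The scaffold gene Slc9a3r1 had 109, 103 and 90.4 CPM in the 3-library set, against 147 and 182 CPM in the 2-library set (log2 -0.70 ± 0.13 SE, limma adjusted p = 0.00171). Slc24a3, a potassium-dependent sodium calcium exchanger, had 80.1, 63.5 and 52.1 CPM in the 3-library set, against 19.2 and 33.5 CPM in the 2-library set (log2 1.34 ± 0.24 SE, limma adjusted p = 0.00147). The endosomal sodium proton exchangers Slc9a7 (log2 1.20) and Slc9a8 (0.84) and the scaffold gene Slc9a3r2 (0.71) also rose. The call of Slc9a7 was lost without replicate 1 of the 2-library set (limma adjusted p = 0.0672) and without replicate 1 or 2 of the 3-library set (0.0698 and 0.0603). That of Slc9a8 was lost without replicate 1 of the 3-library set (limma adjusted p = 0.0804). That of Slc9a3r2 was lost without replicate 1 of the 2-library set (limma adjusted p = 0.0860) and without replicate 3 of the 3-library set (0.0633).

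Of 10 tested cation chloride and bicarbonate carriers 2 (20%) rose and none fell, against 13.2% and 9.47% of all genes. The group's median log2 was 0.24. Without replicate 1 of the 2-library set 2 rose and 1 fell, with a median of 0.016, and without its replicate 2, 3 rose and 1 fell, with a median of 0.60. Without replicate 2 of the 3-library set 3 rose, and without its replicate 1 the median was 0.41. Slc12a5, the neuronal potassium chloride cotransporter that sets the chloride gradient for GABA, had 173, 175 and 178 CPM in the 3-library set, against 118 and 108 CPM in the 2-library set (log2 0.63 ± 0.10 SE, limma adjusted p = 0.000696). Slc4a8, a sodium-driven chloride bicarbonate exchanger, had 39.9, 41.7 and 57.3 CPM in the 3-library set, against 23.6 and 21.4 CPM in the 2-library set (log2 1.02 ± 0.21 SE, limma adjusted p = 0.00316). Slc12a2, the inward chloride cotransporter, differed within the 2-library set: it had between 19.7 and 29.3 CPM in the 3-library set, 12.6 CPM in replicate 1 and 29.6 CPM in replicate 2 of the 2-library set. Slc4a2, an anion exchanger, had 48.2, 50.1 and 46.9 CPM in the 3-library set, against 31.02 and 72.7 CPM in the 2-library set.

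Slc41a3 of the magnesium carrier family rose (log2 1.53 ± 0.33 SE), as did Slc39a7, which releases zinc from the endoplasmic reticulum (0.64 ± 0.14 SE). These were 2 (11.1%, against 13.2% of all genes) of 18 tested zinc and metal carriers. Without replicate 2 of the 2-library set 3 rose. Slc41a3 had 17.8, 20.7 and 14.3 CPM in the 3-library set, against 7.14 and 4.93 CPM in the 2-library set (limma adjusted p = 0.00491). Slc30a9, the group's gene with most reads, had 202, 206 and 200 CPM in the 3-library set, against 229 and 204 CPM in the 2-library set (limma adjusted p = 0.543). The UDP-galactose carrier Slc35a2 (log2 0.66, limma adjusted p = 0.00107) and Slc35c2 (log2 0.39, limma adjusted p = 0.0425) rose. These were 2 (13.3%, against 13.2% of all genes) of the 15 tested Slc35 genes. Without replicate 2 of the 2-library set 2 of them rose and 1 fell, without its replicate 1, 3 rose, and without each library of the 3-library set in turn 1 rose. Of 11 tested nucleoside, phosphate, sulphate and folate carriers 3 rose, or 4 without replicate 2 of the 2-library set and 2 without each of the other 4 libraries in turn. Slc29a3, a lysosomal nucleoside carrier, had 20.5, 28.5 and 24.7 CPM in the 3-library set, against 5.91 and 8.37 CPM in the 2-library set (log2 1.77 ± 0.29 SE, limma adjusted p = 0.000755). The phosphate carrier Slc20a1 had a log2 difference of 0.58 and the acetyl-CoA carrier Slc33a1 one of 0.61. With Slc29a3 these made up 27.3% of their tested group, against 13.2% of all genes. Of 15 organic ion, choline, fatty acid and peptide carriers 4 (26.7%, against 13.2% of all genes) rose. Without replicate 2 of the 2-library set 6 did, and without replicate 1, 2 or 3 of the 3-library set 1, 2 and 3 did. Slc22a17, a receptor for lipocalin 2, had 1651, 1692 and 1691 CPM in the 3-library set, against 1155 and 1158 CPM in the 2-library set (log2 0.54 ± 0.07 SE, limma adjusted p = 0.000111). The others were Slc27a3 of the fatty acid family (log2 1.68), the vitamin C carrier Slc23a2 (0.75) and Slc44a2 of the choline carrier family (0.74). Several of these calls did not survive the loss of 1 library. Slc33a1 lost its call without each of the 5 libraries in turn (limma adjusted p = 0.0501 to 0.145). Slc35c2 and Slc27a3 lost theirs without replicate 1 of the 2-library set (limma adjusted p = 0.164 and 0.140) and without each library of the 3-library set (0.0634 to 0.159 and 0.0546 to 0.124). Slc44a2 lost its call without replicate 2 of the 2-library set (limma adjusted p = 0.193) and without replicate 1 or 2 of the 3-library set (0.153 and 0.124). Slc23a2 lost it without replicate 1 of the 3-library set (limma adjusted p = 0.0540).

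Accessory subunits, kinases and pumps that work with solute carriers were compared as a list of 62 genes, of which 46 were tested. Of these 14 (30.4%) rose and 6 (13.0%) fell, against 13.2% and 9.47% of all genes. The median log2 of the list was 0.21. Atp2b1, a calcium pump of the plasma membrane, had 221, 238 and 218 CPM in the 3-library set, against 503 and 437 CPM in the 2-library set (log2 -1.06 ± 0.10 SE, limma adjusted p = 6.12e-06). Bsg, the chaperone of monocarboxylate carriers, had 183, 216 and 188 CPM in the 3-library set, against 101 and 135 CPM in the 2-library set (log2 0.74 ± 0.13 SE, limma adjusted p = 0.00135). Both genes were chosen after their values were seen.

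Exon inclusion is given as PSI, the share of transcripts that include an exon, from 0 to 1, computed from inclusion and skipping reads per form length. The read minimum, a mean of 20 per library with 2 from the rarer form, left 102 exons of 62 solute carriers to test from the HSV libraries. limma called 0 of them, with 0.426% of all 7754 tested exons called, and 8 (7.84%) had an unadjusted p below 0.05, against 11.6% of all tested exons. With weights from the sampling variance alone limma called 3 of 102, with 3.69% of all exons called. The authors' deposited table gives an FDR below 0.05 to 13 of the 102 (12.7%), against 12.6% of all tested exons. It gives one to 21 of the 446 listed exons, in 18 genes, against 4.87% of all listed exons. The sets did not overlap in 14 exons that were higher and 14 that were lower, 27.5% of the 102, against 28.5% of all exons. The exon shares and sizes were also near those of all tested exons: 49.0% had a length divisible by 3, against 52.8%, and the median length was 107.5 nt, against 104 nt. PSI was above 0.9 in 45 of the 102, below 0.1 in 11 and between in 46.

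The exons named next had the smallest p-values and were chosen after these were seen, except the 90-nt exon of Slc4a10, which had the largest PSI difference among the 102 tested exons. Coordinates are those of the HSV table, whose genome build is not given per table. They are not GRCm38 coordinates, since 9.19% of its solute carrier exons lay inside their gene there. Slc4a10 encodes a sodium-driven chloride bicarbonate exchanger of neurons. Its 90-nt exon (chr2:62082409-62082498) had a PSI of 0.439, 0.450 and 0.471 in the 3-library set, against 0.143 and 0.254 in the 2-library set (log2 odds 1.77 ± 0.56 SE, limma adjusted p = 0.163). Its 39-nt exon (chr2:62155533-62155571) had a PSI of 0.812, 0.802 and 0.838 in the 3-library set, against 0.966 and 0.883 in the 2-library set (limma adjusted p = 0.310). The exons of this gene differed in opposite directions, and neither passed the test.

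Slc25a25 encodes another calcium-dependent ATP-Mg/phosphate carrier of mitochondria. Its 36-nt exon (chr2:32276176-32276211) had a PSI of 0.438, 0.525 and 0.443 in the 3-library set, against 0.237 and 0.196 in the 2-library set (log2 odds 1.67 ± 0.52 SE, limma adjusted p = 0.158). With a minimum of 50 reads and 5 of the rarer form it was the 1 solute carrier exon called (limma adjusted p = 0.0495), where 1.60% of exons were called. Slc38a10, a neutral amino acid carrier family member, had for its 118-nt exon (chr11:120009035-120009152) a PSI of 0.933, 0.924 and 0.916 in the 3-library set, against 0.698 and 0.771 in the 2-library set (log2 odds 2.07 ± 0.62 SE, limma adjusted p = 0.137). A second tested 118-nt entry of Slc38a10 had a mean PSI of 0.956 in the 3-library set, against 0.846 in the 2-library set (limma adjusted p = 0.495). The Slc25a25 exon, the first Slc38a10 entry and the 90-nt exon of Slc4a10 were the 3 called with weights from sampling variance alone (limma adjusted p = 1.11e-05, 0.00912 and 0.000277 for Slc25a25, Slc38a10 and Slc4a10). The second Slc38a10 entry was not called with those weights (limma adjusted p = 0.424). With those weights, Slc25a25 kept its call without each library in turn, while Slc38a10 lost its call without replicate 1 of the 2-library set and without replicate 3 of the 3-library set, and Slc4a10 without replicate 1 of the 2-library set.

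The 116-nt exon of Slc38a2 had a PSI of 0.909, 0.951 and 0.978 in the 3-library set, against 0.743 and 0.835 in the 2-library set (limma adjusted p = 0.193). Slc44a1, a choline carrier, had a PSI of 0.990, 0.976 and 0.989 for a 170-nt exon in the 3-library set, against 0.954 and 0.919 in the 2-library set (limma adjusted p = 0.211). Slc8a1, the sodium calcium exchanger with mutually exclusive exons, had 4 tested exons, and its 69-nt exon had a PSI of 0.206, 0.325 and 0.219 in the 3-library set, against 0.660 and 0.297 in the 2-library set, with overlap (limma adjusted p = 0.539). Slc24a2, another calcium exchanger, had 5 tested exons with limma adjusted p-values of 0.568 to 0.895. Slc8a1 and Slc24a2 were chosen after their values were seen.

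**Figure D4:**
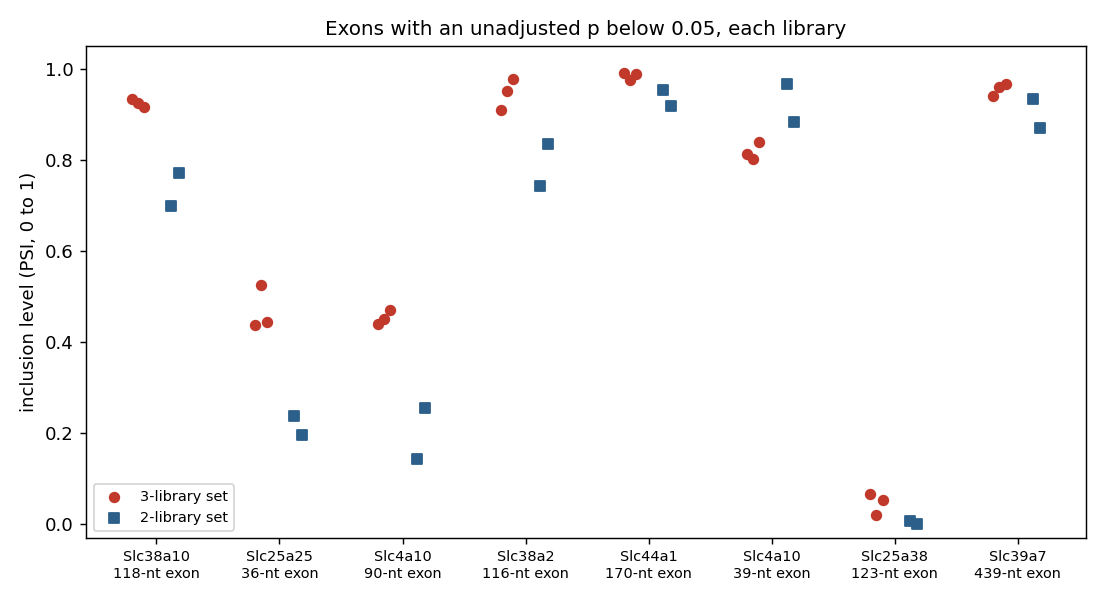
PSI (vertical axis, 0 to 1) of the 8 solute carrier exons with an unadjusted p below 0.05, in each of the 3 libraries of the 3-library set (circles) and the 2 of the 2-library set (squares). The sets do not overlap in the exons shown, and none had an adjusted p below 0.05; the Slc4a10 90-nt exon lies at 0.439 to 0.471 in the 3-library set, against 0.143 and 0.254 in the 2-library set.

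In the dCas9-SET2 table, whose exons all lay inside their genes in GRCm38, PSI was taken from the reads summed over 15 runs of a set. Runs of 1 sample are not independent, so no test was made, and the intervals (95%, Wilson) cover counting error only. The authors' deposited table gives an adjusted p below 0.05 to 1 of 88 solute carrier exons that have one, against 4.96% of all exons. That exon, 95 nt in the lactate exporter Slc16a3 (chr11:120954174-120954268), had 22 inclusion and 5 skipping reads in the second set and 36 and 4 in the first set. Its PSI was 0.692 (0.468 to 0.851) in the second set and 0.821 (0.630 to 0.925) in the first set, with overlapping intervals, while the authors' deposited table, which includes the repeated run, gives a dPSI of -0.574, signed as second minus first set, and an adjusted p of 0.0273.

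The 36-nt exon of Slc25a25 (chr2:32420656-32420691) had 47 inclusion and 67 skipping reads in the second set, against 44 and 117 in the first set. This gives a PSI of 0.340 (0.262 to 0.427) in the second set and 0.216 (0.163 to 0.280) in the first set, with an adjusted p of 0.0836 in the authors' deposited table. The 90-nt exon of Slc4a10 had a PSI of 0.311 (0.219 to 0.421) in the second set and 0.431 (0.341 to 0.525) in the first set, and the authors' deposited table gives an adjusted p of 0.227. For the 39-nt exon of Slc4a10 the PSI was 0.873 (0.799 to 0.922) in the second set and 0.958 (0.915 to 0.979) in the first set, with an adjusted p of 0.178 in the authors' deposited table. The 118-nt exon of Slc38a10 had 27 inclusion and 2 skipping reads in the second set, against 44 and 0 in the first set. Its PSI was 0.860 (0.618 to 0.959) in the second set and 1 (0.839 to 1) in the first set. The authors' deposited table gives it an adjusted p of 0.482. These exons were matched to the HSV table by gene and length only, and chosen because of their values there. The Slc38a10 exon matched both 118-nt entries of that gene. With the duplicate run counted as well, the PSI of Slc25a25 was 0.328 in the second set and 0.223 in the first set.

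**Figure D5:**
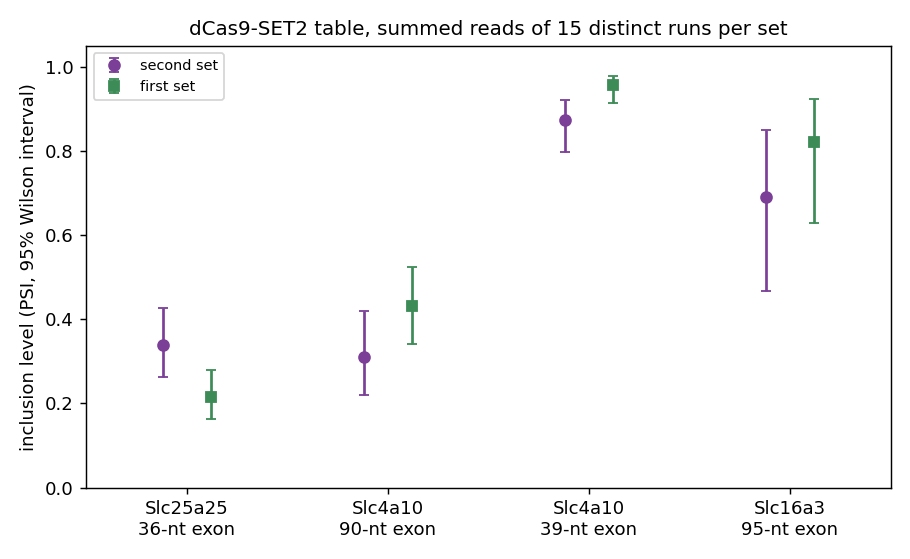
PSI (vertical axis, 0 to 1) of 4 solute carrier exons in the dCas9-SET2 table, from reads summed over 15 distinct runs, for the second set (circles) and the first set (squares), with 95% Wilson intervals for counting error. The intervals of the sets overlap in all 4 exons; those of Slc25a25 are 0.262 to 0.427 in the second set and 0.163 to 0.280 in the first set.

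Solute carriers took 0.781% of the reads of deepest exons in the second set and 0.755% in the first set, a log2 ratio of 0.050. Over runs the share was 0.710% to 0.852% in the second set and 0.706% to 0.837% in the first set, so the runs overlapped. In 28 solute carriers with at least 100 reads over both sets the median log2 ratio was -0.088, against -0.020 in 2224 such genes. Slc22a17 had 911 reads in the second set and 991 in the first set, which is 1217 and 985 CPM. Slc24a2 had 247 reads in the second set and 490 in the first set, which is 330 and 487 CPM. The run values of both overlapped: 870 to 1705 CPM in the second set and 656 to 1409 CPM in the first set for Slc22a17, and 119 to 598 CPM in the second set and 293 to 818 CPM in the first set for Slc24a2.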

How the data were processed

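RNA libraries of mouse nucleus accumbens were read from 2 deposited tables of exon skipping. The submitters' processing notes name the aligners STAR 2.4.1d and Bowtie2 and the builds mm9 and mm10 without a role; what called the events is not stated there. Cells of the tables hold deposited counts joined by commas, 1 per library or run, without sample names: 5 such columns in the HSV table, 32 in the other. They were compared as the sets each table defines. The deposited inclusion fraction per library was recomputed from counts per form length (exon plus 150 against 150 in the HSV table), and 100% of values agreed within 0.001. The p-value, FDR, padj and the score of difference per event (dPSI) are the authors' deposited values, and their tests are not stated.

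From the HSV table, 9430 of 9542 gene identifiers were matched to symbols. Exon inclusion was fitted with limma 3.58.1 (R 4.3.3) on log2 odds with 0.5 added to each count, weights from the sampling variance plus 1 spread shared by all exons, and a trended spread. For coverage, limma was fitted to log2 CPM (0.5 added, which understates the folds of low genes) of each gene's deepest exon, after TMM scaling with trims of 0.3 and 0.05. Tests were two-sided and adjusted with Benjamini-Hochberg over the whole table, with calls at 0.05. No count model was fitted, because the plan kept one for columns of plain counts. Here the joined counts were split before use. The scripts were checked on simulated data. Named were every called gene, or beyond 30 calls the 15 largest rises and up to 15 falls, the transmitter carriers, the gene with most reads of each family and the largest PSI difference among tested exons. The other called genes, and Slc8a1, Slc12a2, Slc4a2, Slc2a3's summed value and the exons described beside the largest PSI difference, were added after their values were seen. The single values of a few items are not reported here. The members and the gene lists were chosen with earlier results of these data known. Alternatives changed the weights, the read minimum, the added count, the scaling, the gene value and the threshold, and left out each library in turn. Intervals cover counting error only, since reads without molecular identifiers are not independent molecules.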

Additional observations from a re-analysis of the deposited data

How the results depend on the processing

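No paired analysis was possible because the columns carry no sample names or replicate numbers. The 42 called coverage differences all kept their calls under other scaling, gene values and read minimums, with 37 to 49 solute carriers higher and 5 to 7 lower. When each library was left out in turn, 29 to 42 were higher and 5 to 9 lower, 29 of the 42 (24 higher, 5 lower) kept their calls in every such fit, and 13 lost it in at least 1, all with the same direction. The median of the solute carriers ran from 0.279 to 0.357 over all settings, and that of all genes from -0.012 to 0.033. Inclusion depended on the setting: 33 exons in all were called, against 286 with weights from sampling variance alone, 0 without weights, 974 by the authors' deposited FDR, 17 with a minimum of 10 reads, 62 with one of 50 reads, 72 with 1 added to each count and 4 to 10 without 1 library. The 0 solute carrier exons became 3 with weights from sampling variance alone, 13 by the deposited FDR, 1 with the 50-read minimum and 0 elsewhere; the 3 became 1 to 3 without 1 library, an alternative added after seeing the data. Of the dCas9-SET2 exons, 262 in all had an adjusted p below 0.05, against 30 below 0.01 and 150 with a mean of 5 reads per run; the 1 solute carrier exon became 0 under both. Signs were followed in only 23 of the tested solute carrier exons. In 7 of these, all far from a call, the log2 odds changed sign without 1 library. They ran from -0.20 to 0.39 in Slc25a23 (-0.18 in another such fit), -0.19 to 0.74 in Slc35a2, -0.13 to 0.50 in Slc12a5 (-0.084 in another), -1.98 to 0.20 in Slc18b1, -0.60 to 0.46 in Slc50a1, -2.35 to 0.028 in Slc22a17 and -1.002 to 0.034 in Slc8a2. The cause was not tested. With 2 libraries in a set, an exon that is not called is no evidence of equal inclusion, and without 1 of them the remaining library is assumed to vary like the others.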
